A study of Mus musculus with 5 samples.

Results

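The Ifi200 genes and Aim2 encode the mouse PYHIN proteins, a family of interferon-inducible DNA-binding proteins whose genes lie side by side on chromosome 1. Of 9 names chosen (Ifi203, Ifi204, Ifi205, Mnda, Ifi207, Ifi209, Ifi211, Ifi213 and Aim2), 8 matched a row by their GENCODE M21 symbol, out of 54532 gene IDs in the table. Mnda has no gene of its own in GENCODE M21, and RefSeq lists it as an older name of Ifi211, so its reads are those given here for Ifi211. A typical PYHIN protein joins a pyrin domain, which binds other pyrin domains, to HIN domains, which bind double-stranded DNA. AIM2 senses DNA in the cytosol and recruits the adaptor ASC (Pycard) and caspase-1 into an inflammasome that releases interleukin-1 family cytokines, while the protein of Ifi204 is known in mouse cells for DNA sensing that passes through STING. Many Ifi200 genes are induced by interferon in macrophages and other leukocytes.

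Transcript levels were measured by RNA sequencing of kidneys from wild type male C57BL/6J mice aged 8 weeks. There were 2 libraries from mice given DMXAA, a small molecule that activates mouse STING, at 10 mg/kg by intraperitoneal injection on each of 3 days, and 3 libraries from mice given vehicle injections on the same schedule. Tissue was taken on day 3, and whole tissue was sequenced, so fewer cells of a type and less RNA per cell cannot be told apart. Libraries held 17667490 to 20264228 counts, of which the 8 genes together took 604 to 1117. The labels number the samples as replicates without saying that each came from its own mouse, so p-values measure the spread between these samples. The kidney tubule marker list summed to 26725 and 26417 CPM (counts scaled to library size with edgeR's TMM factors) in the DMXAA libraries and 22768 to 27345 CPM in the vehicle libraries, as the tissue label states. Vehicle library 1 stood apart in its adipose markers, at 708 CPM summed, against 16.8 and 19.5 CPM in the DMXAA libraries and 19.1 and 31.3 CPM in vehicle libraries 2 and 3.

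The starts of these genes share a short stretch of DNA, shown here because it is a feature of sequence that most of these genes have in common. RefSeq start-site windows on GRCm38.p6, the assembly of mm10, from 250 bases before to 50 after each annotated start, were found for 7 of the 8 genes (Ifi204 is named only). They were searched on both strands for GAAANNGAAA, the core of the interferon-stimulated response element, to which interferon regulatory factors bind. In 5 of the 7 genes (Ifi203, Ifi205, Ifi207, Ifi211 and Ifi213) the motif was found, against 3.44% of all 32851 promoter windows. The exact run GAAATCGAAA stood at Ifi203, Ifi207 and Ifi213, while only 16 of the 32851 windows, 0.049%, held that run, 7 of them at genes of this locus. The Ifi211 and Ifi205 windows held GAAATTGAAA, which differs from it by C6T, and the closest run at Ifi209 was TAAATCGAAA, which differs by G1T and so no longer matches the searched motif (positions are counted from 1 at the 5′ end of GAAATCGAAA). The 50 bases around each run are given below in the direction of transcription, with the run in capitals.
Ifi213: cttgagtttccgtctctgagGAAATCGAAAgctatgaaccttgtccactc
Ifi209: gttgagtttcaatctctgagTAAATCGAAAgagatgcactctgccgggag
Ifi207: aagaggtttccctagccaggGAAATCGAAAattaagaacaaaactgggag
Ifi211: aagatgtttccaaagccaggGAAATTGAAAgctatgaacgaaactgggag
Ifi203: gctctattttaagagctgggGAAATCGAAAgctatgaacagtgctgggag
Ifi205: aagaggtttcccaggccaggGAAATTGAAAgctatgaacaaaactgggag

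These windows lie at chr1:173599316-173599365 (Ifi213, minus strand), chr1:173630760-173630809 (Ifi209, plus strand), chr1:173741821-173741870 (Ifi207, minus strand), chr1:173913054-173913103 (Ifi211, minus strand), chr1:173942498-173942547 (Ifi203, minus strand) and chr1:174031860-174031909 (Ifi205, minus strand). The run began 35 bases before the annotated start at Ifi203, 37 at Ifi211, 41 at Ifi207, 73 at Ifi213, 79 at Ifi209 and 134 at Ifi205. Without gaps, the windows of these 6 genes were identical at 25 to 46 of 50 bases between pairs, most alike for Ifi211 and Ifi205. The window of Ifi203 was identical in all 50 bases to that of its neighbour Mndal, and the window of Ifi213 to that of Ifi208. A second annotated start of Ifi203 held no match.

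The Aim2 window, shown whole as a contrast to the windows above, held neither this motif nor the gamma-activated site TTCNNNGAA. Its closest run to GAAATCGAAA differed at 4 positions (T5C, G7T, A8T and A10T, in capitals below). The window lies at chr1:173420354-173420653 on the plus strand, at a start inside the gene, which GENCODE M21 begins at 173350879. That earlier start was not searched. The gamma-activated site was in 8.3% of all windows and in none of those of the 7 genes. The window of Ifi202b, a family gene that is not a member, also lacked GAAANNGAAA but held 1 gamma-activated site. A match is only a run of letters, and no match says only that these letters are not in this window.
Aim2: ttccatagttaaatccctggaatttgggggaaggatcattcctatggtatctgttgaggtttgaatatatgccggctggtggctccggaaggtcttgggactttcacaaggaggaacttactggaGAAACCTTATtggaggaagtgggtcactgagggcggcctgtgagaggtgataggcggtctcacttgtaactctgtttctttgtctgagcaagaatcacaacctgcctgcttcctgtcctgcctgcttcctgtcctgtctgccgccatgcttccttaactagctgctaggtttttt

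Against this background the question was which of the family's transcripts differed in kidney after 3 daily injections of the STING activator. Ifi204 had the largest estimate, about 2.01-fold higher in DMXAA than in vehicle kidneys, and Ifi203, Ifi213, Ifi211 and Ifi207 likewise had no vehicle library as high as either DMXAA library. Aim2 and Ifi209 overlapped between the groups, and Ifi205 lay below all vehicle libraries. No member passed the test over all genes: edgeR's quasi-likelihood F test with Benjamini-Hochberg adjustment called 0 of the 8, as it called 0% of the 16226 genes tested, and adjusted p ran from 0.715 (Ifi204) to 0.991 (Aim2). At an unadjusted p below 0.05, 3 of the 8 had higher estimates (Ifi204, Ifi203 and Ifi213) and 0 lower ones, against 3.89% of all genes on the higher side. Without DMXAA library 2 the log2 fold changes of these 3 were 0.71, 0.33 and 0.75, against 1.01, 0.47 and 0.81 with all libraries. DESeq2 gave an adjusted p to 6 of the 8, all but Aim2 and Ifi205, and called 0 of the 6. It had 3 members at an unadjusted p below 0.05, against 993 of the 28030 genes it tested, in either direction. It called 0.389% of the genes to which it gave an adjusted p.

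Both DMXAA libraries exceeded every vehicle library in 5 of the 8 genes, against 13.7% of all tested genes. The median log2 fold change of the 8 was 0.53, against -0.01 over all tested genes. Without vehicle library 1, the library rich in adipose markers, the median was 0.37, and 5 of the 8 again lay above all vehicle libraries, against 21.5% of the genes tested there. The members were chosen with earlier results of these data known, their reads overlap in part, and no test was made of the list.

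**Figure D1:**
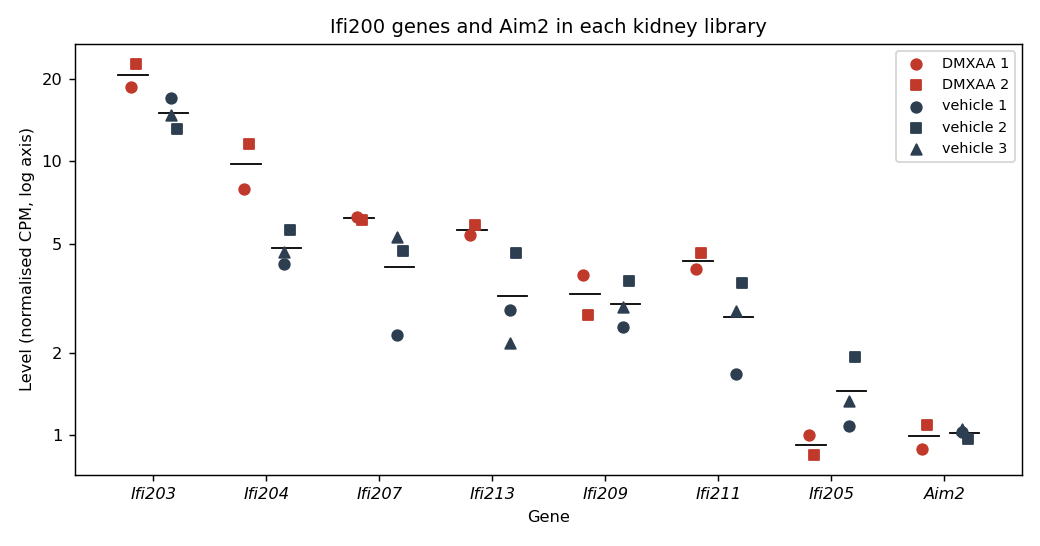
Normalised CPM (log axis) of the 8 genes in each library, with red symbols for the 2 DMXAA libraries, dark symbols for the 3 vehicle libraries and a bar for each group's mean. The DMXAA symbols lie above all vehicle symbols for Ifi203, Ifi204, Ifi207, Ifi213 and Ifi211 and below them for Ifi205.

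Ifi204, the DNA sensor whose protein is often set beside human IFI16, stood at 7.88 and 11.6 CPM in the DMXAA libraries and 4.22, 5.63 and 4.66 CPM in the vehicle libraries. The groups did not overlap, and DMXAA library 2 was well above library 1. The log2 fold change was 1.01 (SE 0.24, 95% interval 0.44 to 1.58), with an adjusted p of 0.715 in edgeR and 0.104 in DESeq2. Leaving out any library gave estimates from 0.71 (without DMXAA library 2) to 1.27 (without DMXAA library 1). On mm10, Ifi204 (ENSMUSG00000073489) spans chromosome 1 from 173747293 to 173766943 on the minus strand, and these counts came from 142 and 233 reads in DMXAA and 78, 99 and 84 in vehicle.

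Ifi203, the member with the most reads, stood at 18.7 and 22.7 CPM in the DMXAA libraries and 17.0, 13.1 and 14.7 CPM in the vehicle libraries. DMXAA library 1 was only slightly above vehicle library 1. Its log2 fold change was 0.47 (SE 0.16, 95% interval 0.10 to 0.85; edgeR adjusted p = 0.736). Ifi203 (ENSMUSG00000039997) spans chromosome 1 from 173920407 to 173942672 on the minus strand. Of its 6706 exonic bases, 37 also lie in exons of Mndal.

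Ifi213 (ENSMUSG00000073491) stood at 5.38 and 5.87 CPM in the DMXAA libraries and 2.87, 4.60 and 2.16 CPM in the vehicle libraries. The DMXAA pair was tight and vehicle library 2 came closest to it. Its estimate was a log2 fold change of 0.81 (SE 0.33, 95% interval 0.01 to 1.61; edgeR adjusted p = 0.741).

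Ifi211 (ENSMUSG00000026536) stood at 4.05 and 4.63 CPM in the DMXAA libraries and 1.68, 3.58 and 2.83 CPM in the vehicle libraries. Vehicle library 1 was the low one, at less than vehicle library 2 by a factor of 2.14. Between the groups the log2 fold change was 0.69 (SE 0.34, 95% interval -0.13 to 1.51; edgeR adjusted p = 0.750), and without vehicle library 1 it was 0.43.

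Ifi207 (ENSMUSG00000073490) stood at 6.27 and 6.12 CPM in the DMXAA libraries and 2.32, 4.72 and 5.27 CPM in the vehicle libraries. Here again vehicle library 1 was far below its group, and without it the log2 fold change of 0.59 (SE 0.35, 95% interval -0.23 to 1.42; edgeR adjusted p = 0.759) was 0.30.

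Ifi209 (ENSMUSG00000043263), whose start window carries the changed run, stood at 3.83 and 2.74 CPM in the DMXAA libraries and 2.49, 3.64 and 2.94 CPM in the vehicle libraries. DMXAA library 1 was the highest of the 5 and vehicle library 1 the lowest, while DMXAA library 2 lay below vehicle libraries 2 and 3. The log2 fold change was 0.12 (SE 0.29, 95% interval -0.58 to 0.81; edgeR adjusted p = 0.934), and it was -0.14 without DMXAA library 1 and -0.01 without vehicle library 1.

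Aim2 (ENSMUSG00000037860), the inflammasome sensor, stood at 0.888 and 1.09 CPM in the DMXAA libraries and 1.03, 0.966 and 1.05 CPM in the vehicle libraries. All 5 libraries were close together, on 16 and 22 reads in DMXAA and 19, 17 and 19 in vehicle. Its log2 fold change was -0.03 (SE 0.35; edgeR adjusted p = 0.991). Its 95% interval ran from -0.86 to 0.79, so a difference of either sign within that range was not excluded.

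Ifi205 (ENSMUSG00000054203), whose protein is known in mouse macrophages for control of the Asc gene, stood at 0.999 and 0.846 CPM in the DMXAA libraries and 1.08, 1.93 and 1.33 CPM in the vehicle libraries. It was the only member with both DMXAA libraries below all vehicle libraries, although DMXAA library 1 and vehicle library 1 nearly met. DMXAA over vehicle, its log2 fold change was -0.65 (SE 0.40, 95% interval -1.59 to 0.30; edgeR adjusted p = 0.770). Without vehicle library 2, the highest of its group, it was -0.38.

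Some of these reads cannot be placed with certainty, since the handling of reads that match several genes is not given in the sources used here. Of all stretches of 100 bases in the Ifi211 transcripts, 56.9% occur unchanged in another gene, 37.2% in Ifi205. The shares were 16.9% for Ifi209 (all with Ifi214), 15.0% for Ifi205, 10.7% for Ifi204 (9.56% with Ifi211), 3.30% for Ifi213, 2.84% for Ifi203 and 0.79% for Ifi207. Aim2 shared none. Summed, Ifi205 and Ifi211 stood at 5.05 and 5.47 CPM in the DMXAA libraries and 2.76, 5.51 and 4.16 CPM in the vehicle libraries. The pair thus overlapped between the groups, although each gene alone did not and the estimates had opposite signs. Ifi204 and Ifi211 summed to 11.9 and 16.2 CPM in DMXAA and 5.89, 9.21 and 7.49 CPM in vehicle, so that the groups stayed apart.

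Sums over several genes are given as well, although some members, among them Ifi203, Ifi209, Ifi213 and Ifi207, share stretches with genes that are not members. Reads dropped for matching several genes would be missing from any sum. The 8 members summed to 48.0 and 55.6 CPM in the DMXAA libraries and 32.7, 38.1 and 34.9 CPM in the vehicle libraries, a ratio of the means of 1.47. The 14 matched genes of the locus summed to 71.8 and 79.5 CPM in DMXAA and 51.0, 57.7 and 53.6 CPM in vehicle, a ratio of 1.40. Of 8 further family names listed beside the members, 5 matched a row, so this sum may leave out genes of the locus. Both sums were apart between the groups. Without Ifi203, the largest contributor, the members summed to 29.3 and 32.9 CPM in DMXAA and 15.7, 25.1 and 20.2 CPM in vehicle.

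**Figure D2:**
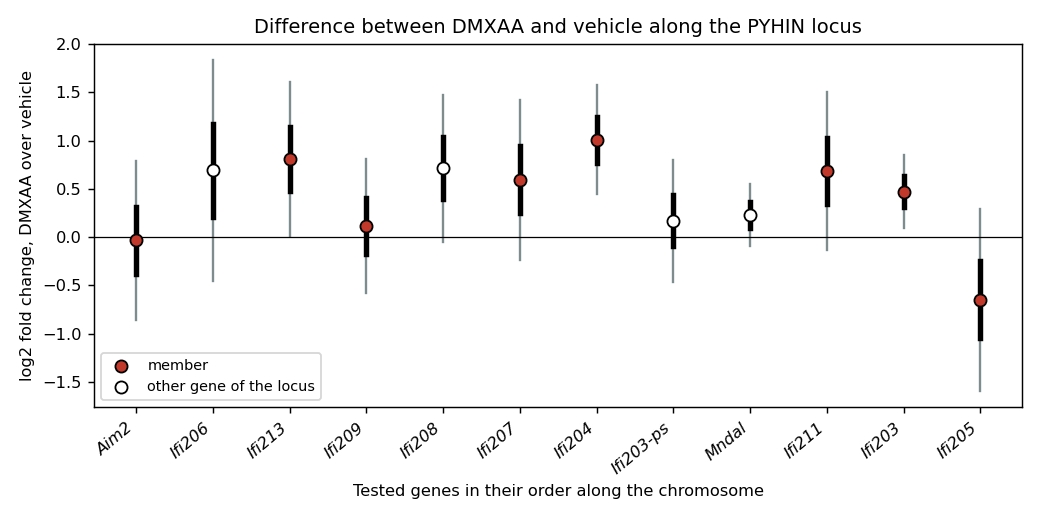
Log2 fold change, DMXAA over vehicle, of the 12 tested genes of the locus in chromosome order, with members in red and other genes open. Thick bars are 1 SE either way and thin bars the 95% interval from edgeR, and the thin bars of Ifi204, Ifi203 and Ifi213 alone lie wholly above 0.

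The locus runs from 173350879 to 174031810 on chromosome 1 of mm10, with Aim2 at its start and Ifi205 at its end. Of the family genes there that are not members, Ifi208 stood at 4.61 and 3.38 CPM in DMXAA and 2.27, 3.18 and 1.83 CPM in vehicle, without overlap (log2 fold change 0.72, SE 0.32; edgeR adjusted p = 0.741). Mndal stood at 14.0 and 15.2 CPM in DMXAA and 12.5, 11.5 and 13.4 CPM in vehicle, also without overlap but with a small difference (0.23, SE 0.13; edgeR adjusted p = 0.759). It was described although it is on none of the lists, since it overlaps Ifi203. Ifi206 (2.39 and 2.49 CPM in DMXAA, against 0.757, 2.44 and 1.33 CPM in vehicle) and the pseudogene Ifi203-ps (2.44 and 2.79 CPM in DMXAA, against 2.65, 2.22 and 2.11 CPM in vehicle) overlapped between the groups. Ifi214 had 5 and 1 reads in DMXAA and 3, 4 and 0 in vehicle and was too low to test. Ifi202b, which encodes a family protein without a pyrin domain and is known for weak expression in the C57BL/6 strain, had 0 reads in every library, a count that leaves room for 0.149 to 0.171 CPM depending on the library (3 counts, counting error only).

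None of Slamf8, Dusp23 and Apcs, the 3 nearest tested genes before the start of the locus, had both DMXAA libraries above all vehicle libraries. Slamf8, a surface receptor gene of leukocytes, lay below them, at 1.33 and 0.995 CPM in DMXAA and 1.73, 3.35 and 2.16 CPM in vehicle (log2 fold change -1.05, SE 0.40; edgeR adjusted p = 0.741).

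Outside the locus, 6 tested genes had GAAATCGAAA in their start windows. They included the RNA sensor gene Ddx58 at 49.8 and 52.9 CPM in DMXAA and 39.9, 56.5 and 38.7 CPM in vehicle, and the death-signalling kinase gene Ripk1 at 42.6 and 46.8 CPM in DMXAA and 37.8, 43.1 and 39.2 CPM in vehicle. Both overlapped between the groups. Of the 6, 4 had estimates above 0 and none passed the edgeR test. Serpinb6a, named after its values were seen, had 22.9 and 22.4 CPM in DMXAA and 33.8, 25.9 and 31.8 CPM in vehicle, with a log2 fold change of -0.43 (SE 0.14; edgeR adjusted p = 0.724).

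Levels of different genes were compared per kilobase of annotated exon. In the DMXAA kidneys the order was Ifi203 (3.09 ± 0.42 CPM per kb, SD, n = 2), Ifi204 (2.73 ± 0.737), Ifi211 (2.43 ± 0.228), Ifi207 (1.81 ± 0.0313), Ifi209 (0.925 ± 0.218), Ifi213 (0.823 ± 0.0504), Aim2 (0.283 ± 0.0417) and Ifi205 (0.221 ± 0.0259). In the vehicle kidneys it was Ifi203 (2.22 ± 0.292 CPM per kb, SD, n = 3), Ifi211 (1.51 ± 0.538), Ifi204 (1.36 ± 0.203), Ifi207 (1.20 ± 0.457), Ifi209 (0.852 ± 0.164), Ifi213 (0.469 ± 0.184), Ifi205 (0.347 ± 0.105) and Aim2 (0.290 ± 0.0128). Aim2 and Ifi205 were thus the lowest per length in both groups, and Ifi203 the first. Neighbours in the DMXAA order overlapped in range for Ifi203 and Ifi204, Ifi204 and Ifi211, and Ifi209 and Ifi213. In vehicle every pair of neighbours overlapped except Ifi209 and Ifi213. Taken per kilobase of the longest transcript, Ifi213 moved ahead of Ifi209 in both groups and of Ifi207 in DMXAA, and Ifi204 ahead of Ifi211 in vehicle.

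No vehicle library was the lowest, or the highest, for all 8 members. Vehicle library 1 was the lowest vehicle library for 5 of the 8 (Ifi204, Ifi205, Ifi207, Ifi209 and Ifi211), and vehicle library 2 was the highest for 5 (Ifi204, Ifi205, Ifi209, Ifi211 and Ifi213). Ifi203 and Aim2 were lower in vehicle library 2 than in vehicle library 1. Ifi203 had the reverse of the common order, with vehicle library 1 highest and vehicle library 2 lowest. The widest spread within vehicle was that of Ifi207, where the highest library was 2.27 times the lowest, and the narrowest that of Aim2, at 1.09 times. Between the DMXAA libraries the widest was Ifi204, at 1.47 times, and the narrowest Ifi207, at 1.02 times. DMXAA library 2 was above library 1 for 5 of the 8.

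**Figure D3:**
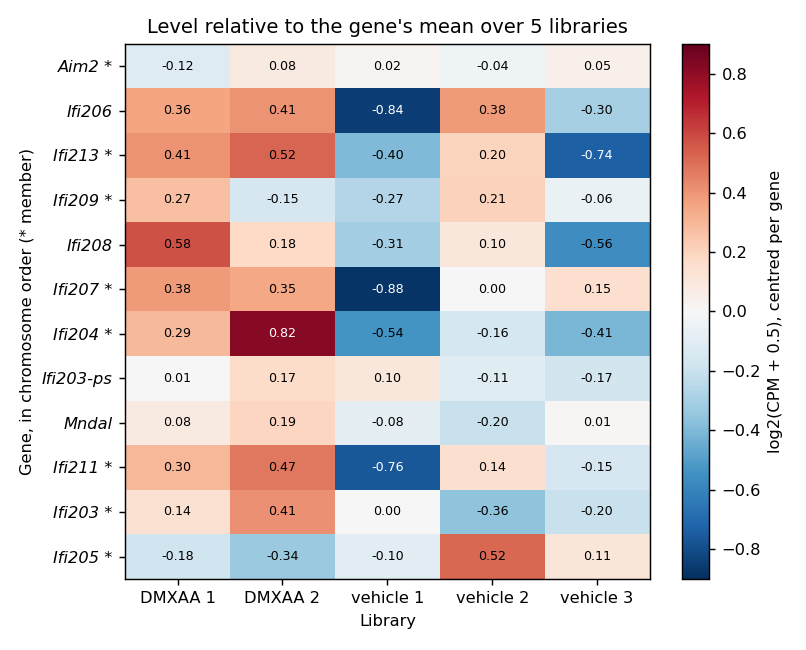
Level of each tested gene of the locus in each library, as log2(CPM + 0.5) minus the gene's mean over the 5 libraries, with red above and blue below that mean and members starred. Ifi207 (-0.88) and Ifi211 (-0.76) are far down in vehicle library 1, where Ifi203 is at 0.00, and Ifi205 reaches 0.52 in vehicle library 2.

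An interferon regulatory factor also differed within the vehicle group. Irf7, which raises interferon output once it is induced, stood at 343 and 478 CPM in the DMXAA libraries and 48.8, 193 and 68.4 CPM in the vehicle libraries. Both DMXAA libraries lay above all vehicle libraries. Vehicle library 2, the highest vehicle library for 5 members, was thus also the highest vehicle library for Irf7, and its part in the members' differences was examined only by leaving it out, which gave a member median log2 fold change of 0.55.

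Since PYHIN transcripts are abundant in leukocytes, markers of such cells are given beside the members. The 14 macrophage and monocyte markers, all with reads, summed to 330 and 313 CPM in the DMXAA libraries and 264, 263 and 377 CPM in the vehicle libraries. The groups overlapped, and vehicle library 3, the highest in these markers, held 34.9 CPM of the members against 48.0 and 55.6 CPM in DMXAA. The 8 dendritic cell markers summed to 26.4 and 22.1 CPM in DMXAA and 24.9 to 32.0 CPM in vehicle, and the 12 T and NK cell markers to 22.5 and 17.2 CPM in DMXAA and 14.5 to 23.9 CPM in vehicle. The 8 B cell markers summed to 16.8 and 6.62 CPM in DMXAA and 12.3 to 22.9 CPM in vehicle, and the 7 neutrophil markers to 5.72 and 7.51 CPM in DMXAA and 4.11 to 54.0 CPM in vehicle. These sums overlapped too, but the single genes behind 3 of them lay mostly on the lower side. Of 5 tested B cell markers, all 5 had estimates below 0, 3 of them at an unadjusted p below 0.05, with a median log2 fold change of -1.90 (-1.03 over 7 tested genes, 5 below 0, without DMXAA library 2). Of 7 tested dendritic cell markers, 6 had estimates below 0, 3 at an unadjusted p below 0.05, with a median of -0.59 (-0.27 without vehicle library 2). All 5 tested neutrophil markers had estimates below 0, none at an unadjusted p below 0.05, with a median of -2.22 (-0.75 over 4 tested genes without vehicle library 3). By contrast, 10 of the 14 macrophage and monocyte markers had estimates above 0, with a median of 0.08. Without vehicle library 3, the highest in these markers, the median was 0.31, with 11 of the 14 above 0. It was 0.36 with the replicate number as a block, and 0.01 without vehicle library 1, with 8 above 0. edgeR called 0 genes of these lists, and DESeq2 called 1, the T and NK cell marker Gzma. Endothelial markers (8 genes) summed to 704 and 781 CPM in DMXAA and 459 to 755 CPM in vehicle, with overlap. Of these 8 genes, 7 had estimates above 0, 2 of them at an unadjusted p below 0.05 in edgeR. The median log2 fold change of the endothelial markers was 0.25, and it was 0.40 without vehicle library 1 and 0.07 without vehicle library 2. Urothelial markers (8 genes) summed to 103 and 109 CPM in DMXAA and 265, 118 and 140 CPM in vehicle libraries 1, 2 and 3. The urothelial sums did not overlap, and vehicle library 1, the one rich in adipose markers, was the highest. The median log2 fold change of the urothelial markers was -2.82, and -0.51 over 7 tested genes without vehicle library 1. The part of these cells in the members' differences was not tested.

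**Figure D4:**
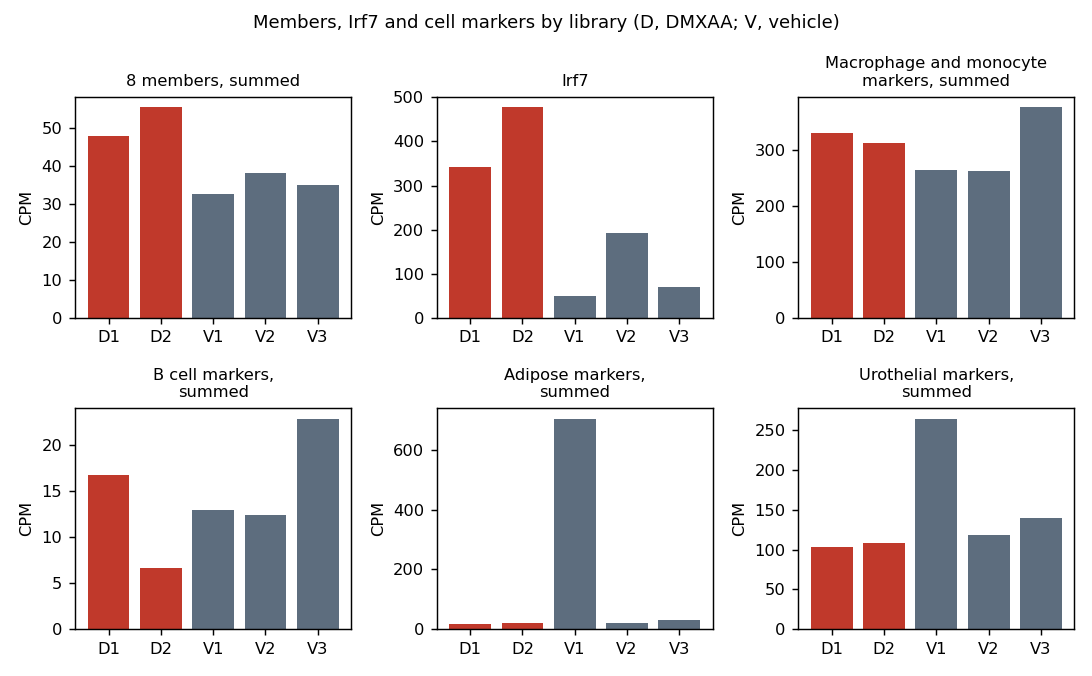
CPM by library (D, DMXAA libraries in red; V, vehicle libraries in grey; each axis starts at 0) of the 8 members summed, Irf7 and 4 summed marker lists. The member sum is 48.0 and 55.6 CPM in DMXAA and at most 38.1 CPM in vehicle, Irf7 reaches 478 CPM in DMXAA and at most 193 CPM in vehicle, and adipose markers peak in vehicle library 1 at 708 CPM.

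Genes of inflammasomes and pyroptosis, not all of them partners of AIM2, had estimates on both sides of 0, with more below it. Those of Pycard and Casp1, whose proteins AIM2 recruits, were both below 0, at -0.56 and -0.10. Of 18 inflammasome and pyroptosis genes, 16 were tested, 5 with estimates above 0 and 11 below, with 0 called and 0 at an unadjusted p below 0.05 in edgeR, 0 called by DESeq2, and a median log2 fold change of -0.10 (-0.16 without DMXAA library 1 and -0.07 without vehicle library 3). Pycard, which encodes the adaptor ASC, stood at 7.55 and 6.37 CPM in the DMXAA libraries and 7.30, 13.8 and 9.59 CPM in the vehicle libraries (log2 fold change -0.56, SE 0.29; edgeR adjusted p = 0.750; -0.28 without vehicle library 2). Casp1, the inflammasome protease, stood at 1.72 and 1.74 CPM in DMXAA and 1.62, 1.93 and 2.00 CPM in vehicle. Both overlapped between the groups. Gsdmd, which encodes the pore-forming protein cut by inflammatory caspases, lay below all vehicle libraries, at 4.94 and 5.12 CPM in DMXAA and 5.95, 7.85 and 6.54 CPM in vehicle (log2 fold change -0.43, SE 0.20; edgeR adjusted p = 0.749). Nek7, a kinase that NLRP3 needs, lay above them, at 141 and 144 CPM in DMXAA and 125, 126 and 125 CPM in vehicle (0.18, SE 0.08; edgeR adjusted p = 0.741).

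Among 21 tested genes of cytosolic DNA sensing outside the family, 14 estimates lay above 0 and 7 below, 0 were called by edgeR or DESeq2 and the median was 0.09 (0.03 without vehicle library 1). With no expression filter edgeR called 1 of them, Irf7 (adjusted p = 0.041, against 0.724 with the filter). At an unadjusted p below 0.05, 2 were higher (Irf7 and the DNA-end binding gene Xrcc5) and 1 lower (Irf3, the transcription factor that STING signalling activates). Tmem173, which encodes STING, stood at 4.83 and 3.88 CPM in DMXAA and 4.54, 5.80 and 6.49 CPM in vehicle, and Cgas, the enzyme that makes the STING ligand, at 1.61 and 1.04 CPM in DMXAA and 1.19, 0.853 and 1.22 CPM in vehicle. Both overlapped between the groups. The 15 genes of interferon signalling had a median near 0, at 0.02, with 9 estimates above 0 and 6 below, and again 0 called by edgeR or DESeq2. That median was -0.01 without vehicle library 1 or without vehicle library 3, and 0.22 without vehicle library 2. At an unadjusted p below 0.05 were Jak1, a kinase of the interferon receptors, and Usp18, which restrains signalling from the type I receptor, both with higher estimates. Usp18 stood at 11.8 and 13.4 CPM in DMXAA and 6.00, 9.78 and 6.10 CPM in vehicle (log2 fold change 0.79, SE 0.25; edgeR adjusted p = 0.724).

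Of 20 interferon-stimulated genes used as a yardstick, 19 estimates lay above 0, with a median of 0.75, 12 without overlap above vehicle, 9 at an unadjusted p below 0.05 and 0 called by edgeR, while DESeq2 called 3 (Rsad2, Ifi44 and Oas1a) and edgeR with no expression filter called those 3 and Irf7. Without vehicle library 2 the median of this list was 1.25, against a member median of 0.55 there. All 20 were then at an unadjusted p below 0.05 in edgeR, against 1893 of 16036 genes in either direction, with 0 called. Ifi44, an interferon-stimulated gene with groups well apart, stood at 26.1 and 35.2 CPM in DMXAA and 16.5, 15.8 and 14.9 CPM in vehicle (log2 fold change 0.96, SE 0.15; edgeR adjusted p = 0.535, or 0.0149 with no expression filter; DESeq2 adjusted p = 0.00115). The estimate of Ifi204 (1.01) lay within the range of this list and that of Ifi205 (-0.65) below its lowest (-0.22). These differences were not tested.

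**Figure D5:**
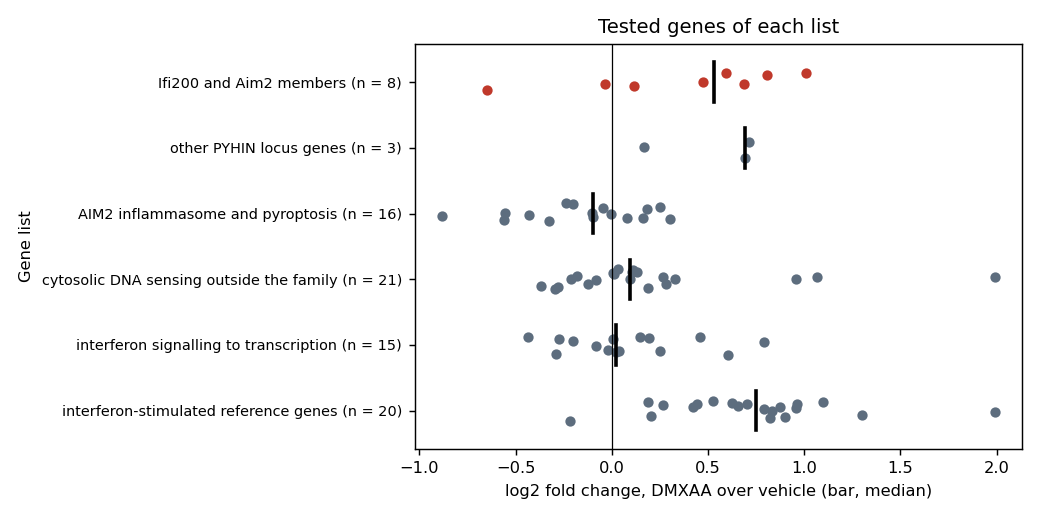
Log2 fold change, DMXAA over vehicle, of each tested gene in 6 lists, with a bar at the list's median (points are spread vertically for legibility). The members' median is 0.53, that of the interferon-stimulated genes 0.75 (1.25 without vehicle library 2) and that of the inflammasome genes -0.10 (-0.16 without DMXAA library 1).

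The genes whose course over the 5 libraries was most like the mean of the 8 members were sought among 13322 tested genes with an average log2 CPM above 1. The measure was the root mean square difference of centred log2(CPM + 0.5). The closest were Glb1l (0.027), Pld1 (0.033), Card10 (0.037), Pter (0.044) and Incenp (0.047). Glb1l stood at 109 and 116 CPM in DMXAA and 77.1, 98.4 and 87.3 CPM in vehicle, with the same order as the mean profile of the members, lowest in vehicle library 1 and highest in DMXAA library 2. The members themselves lay farther from their own mean, from 0.209 (Ifi211) to 0.412 (Ifi205). With 5 libraries and this many candidates, close matches are to be found for many profiles, and the likeness is a description.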

How the data were processed

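Raw counts of reads per Ensembl gene ID were deposited by the authors in a table of 5 sample columns, which were assigned by name. The submitters' processing notes list mm10, DESeq2 1.16.1, Subread, featureCounts and HISAT2. Which annotation, strand setting and handling of multi-mapping reads were used is not given in the sources used here, and the labels' protocols name 2 library kits without saying which sample used which. GENCODE M21, on the assembly of mm10, gave symbols for 99.8% of the 54532 IDs.

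Counts were fitted in edgeR 4.0.16 (R 4.3.3) with TMM scaling, the default expression filter (16226 genes) and group as the only term. The quasi-likelihood F test was two-sided, with calls at a Benjamini-Hochberg adjusted p below 0.05. An SE is the log2 fold change divided by the root of F. Alternatives, among them DESeq2 1.42.0, are given at the end. All library pairs differed beyond sampling noise (reduced chi-square 7.79 to 41.4), so none was merged.

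Members and lists were chosen with earlier results of these data known. The rule named all members, up to 4 genes per pathway list with its smallest unadjusted p (some are left out for length), Pycard, Casp1, Tmem173, Cgas and Irf7, and the 5 genes closest in pattern, and 1 further gene that is not reported here. Ddx58, Ripk1, Serpinb6a, Mndal and the genes before the locus were named after their values were seen. Sequences are from RefSeq, GRCm38.p6.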

Additional observations from a re-analysis of the deposited data

How the results depend on the processing

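No member was called under any of the 12 alternatives: DESeq2, no expression filter, the replicate block, RLE size factors, a minimum of 1 CPM in 2 libraries, each library left out in turn, and 2 added after seeing the data (bias-adjusted quasi-likelihood and a correction for length and GC content). In DESeq2 that covers 6 of the 8, since Aim2 and Ifi205 got no adjusted p. The lowest adjusted p of Ifi204 was 0.104, in DESeq2. The member median log2 fold change of 0.53 ran from 0.37 (without vehicle library 1) to 0.60 (without DMXAA library 1) with libraries left out, and was 0.51 after the length and GC correction. Ifi209 turned to -0.14 without DMXAA library 1 and to -0.01 without vehicle library 1, and Aim2 to 0.11 without DMXAA library 1 (with libraries left out they reached 0.34 and -0.19, both without DMXAA library 2). The other 6 members kept their sign in all 12. The cause was not tested.

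The count of 3 members at an unadjusted p below 0.05 was 1 without vehicle library 3, 2 without vehicle library 1 and 4 without vehicle library 2. The count over all genes, in either direction, moved as well. It was 1062 of 16226 with all libraries and 846 of 15973 without vehicle library 3. Without vehicle library 1 it was 1528 of 15869, and without vehicle library 2 it was 1893 of 16036. Without a DMXAA library the remaining one is assumed to vary like the vehicle libraries, so no such count is given there. With the replicate number as a block the member median was 0.54 and the member count was 1, against 790 of 16226 genes. The labels give no link beyond the number between samples of the same number. Deviations from the group means correlated at 0.07 and 0.07 over the pairs. With 2 DMXAA libraries their deviations mirror each other, so these values are not separate checks, and vehicle library 3 has no pair. They cannot decide whether the numbers mark a pairing. Over all genes edgeR called 0, 4 with the replicate block, 34 with no expression filter and 2 without vehicle library 1, and DESeq2 called 54. Aim2 and Ifi205, at 16 to 34 reads a library, are limited by counting error.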
